A study of Mus musculus with 2 samples.

Results

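Large peritoneal macrophages with few MHC class II transcripts were described in 1 Ankrd22 knockout and 1 wild type single-cell library. They numbered 9720 of the 13021 deposited cell barcodes, with 5214 of 6706 within the knockout and 4506 of 6315 within the wild type library. A barcode was a member when it had at least 500 detected genes, at most 10% mitochondrial UMIs (unique molecular identifiers, each standing for 1 captured transcript), at least 1 UMI of Adgre1 (which encodes F4/80) and at least 5 UMIs of Prg4. In addition its summed H2-Aa, H2-Ab1, H2-Eb1 and Cd74 had to be under 5 per 10000 UMIs, its summed B cell genes Cd79a, Cd79b and Ms4a1 under 3 UMIs, and its summed cell cycle genes Mki67, Top2a, Birc5, Cenpf and Ube2c under 3 UMIs. The members were therefore selected on measured transcripts, and differences between them and the remaining cells are given as a description without a test.

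The mice were Ankrd22-/-, made by CRISPR/Cas9 editing, and Ankrd22+/+ controls, and no treatment was named for either. F4/80+ cells were sorted by FACS from peritoneal cells and captured with the 10x Chromium 3′ v3 chemistry. Age, sex, strain background, the number of animals behind each library and the edited stretch of Ankrd22 are not given in the sources used here. With 1 library per genotype, a difference between genotypes cannot be told apart from a difference between 2 libraries, so no p-value is given and each interval covers counting error only.

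Resident macrophages of the mouse peritoneal cavity fall into a large, abundant class that carries little MHC class II and a small class that carries much of it and is replenished from monocytes. The large class depends on the transcription factor GATA6, which retinoic acid made by neighbouring tissue maintains, and it is known for taking up apoptotic cells, for making coagulation factor V and for the lipid-oxidizing enzyme 12/15-lipoxygenase. MHC class II molecules present antigen to CD4 T cells, and CIITA is the transcriptional coactivator that switches their genes on.

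The knockout library held 110956482 UMIs with a median of 15790.5 per barcode, and the wild type library 96869041 with a median of 14569. Members had a median of 16105.5 UMIs, 3515 genes and 1.499% mitochondrial UMIs in the knockout library, against 14446.5 UMIs, 3072 genes and 0.687% in the wild type library. The libraries shared 15 barcode sequences out of 13006 distinct ones. Ankrd22 had 0 UMIs in the members of both libraries, which allows up to 0.0415 counts per 1000000 UMIs in knockout and 0.0543 in wild type members (upper bound of the 95% exact Poisson interval), so its level does not check the genotype labels. Doublets were not removed beyond the B cell and cell cycle criteria.

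Members made up 82.0% of the 6360 filtered knockout barcodes (95% exact binomial interval 81.0 to 82.9) and 72.0% of the 6259 filtered wild type barcodes (70.9 to 73.1). The class II criterion set aside the largest number of barcodes: 667 knockout and 1174 wild type barcodes failed that criterion and no other. They were 10.5% of filtered knockout barcodes (9.74 to 11.3) and 18.8% of filtered wild type barcodes (17.8 to 19.7), and are called class II high macrophages here. A further 279 knockout and 405 wild type macrophages had at least 3 cell cycle UMIs, which is 4.39% and 6.47% of the filtered barcodes. B cell barcodes without Adgre1 numbered 23 within the knockout and 28 within the wild type library and served as a gauge of free RNA. Shares of cells can also move with the F4/80 gate, which was not tested.

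The Prg4 threshold of the rule cut through a sparse lower tail of the distribution, whereas the class II threshold cut through a well-filled continuum. Barcodes with 4 Prg4 UMIs that met the other criteria numbered 1 within the knockout and 4 within the wild type library, and those with exactly 5 numbered 0 and 3. From 10 to under 20 Prg4 UMIs they numbered 16 and 95. Members had a median of 167 Prg4 UMIs in the knockout (10th percentile 82, 90th percentile 290) and of 100 in the wild type library (37 and 193). Around the class II threshold, 123 knockout and 205 wild type members lay just inside at 4 to 5 per 10000 UMIs, and 107 knockout and 139 wild type barcodes just outside at 5 to 6. No class II UMI at all was seen in 2429 knockout members (46.6%) and 1698 wild type members (37.7%). The boundary with the class II high macrophages is thus a position on a range of values and not a gap between separate populations.

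The 7 markers of large peritoneal macrophages were detected in members of both libraries and stood above their level in B cell barcodes without Adgre1. Gata6 had 177 counts per 1000000 UMIs (CPM; 95% exact Poisson interval 174 to 179) in knockout members and 157 CPM (154 to 160) in wild type members. In the B cell barcodes it had 0 UMIs, which allows up to 37.8 CPM in knockout cells and 22.8 CPM in wild type cells. Garnl3, which encodes a protein with a Rap GTPase-activating domain, had 306 CPM in knockout members and 265 CPM in wild type members, against 0 and 12.4 CPM in the B cell barcodes. Icam2, an endothelial and leukocyte adhesion ligand for the integrin LFA-1, had 1343 CPM in knockout members and 705 CPM in wild type members, against 61.4 and 68.0 CPM in the B cell barcodes. Selp encodes P-selectin, an adhesion receptor for leukocytes. Its level was 557 CPM in knockout members and 474 CPM in wild type members, against 20.5 and 30.9 CPM in the B cell barcodes. Alox15, the 12/15-lipoxygenase, stood at 1946 CPM in knockout and 2363 CPM in wild type members, and F5, coagulation factor V, at 758 CPM and 833 CPM. Prg4, the secreted glycoprotein lubricin, was used by the rule and stood at 10492 CPM and 7298 CPM, with 317 and 155 CPM in the B cell barcodes.

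**Figure D1:**
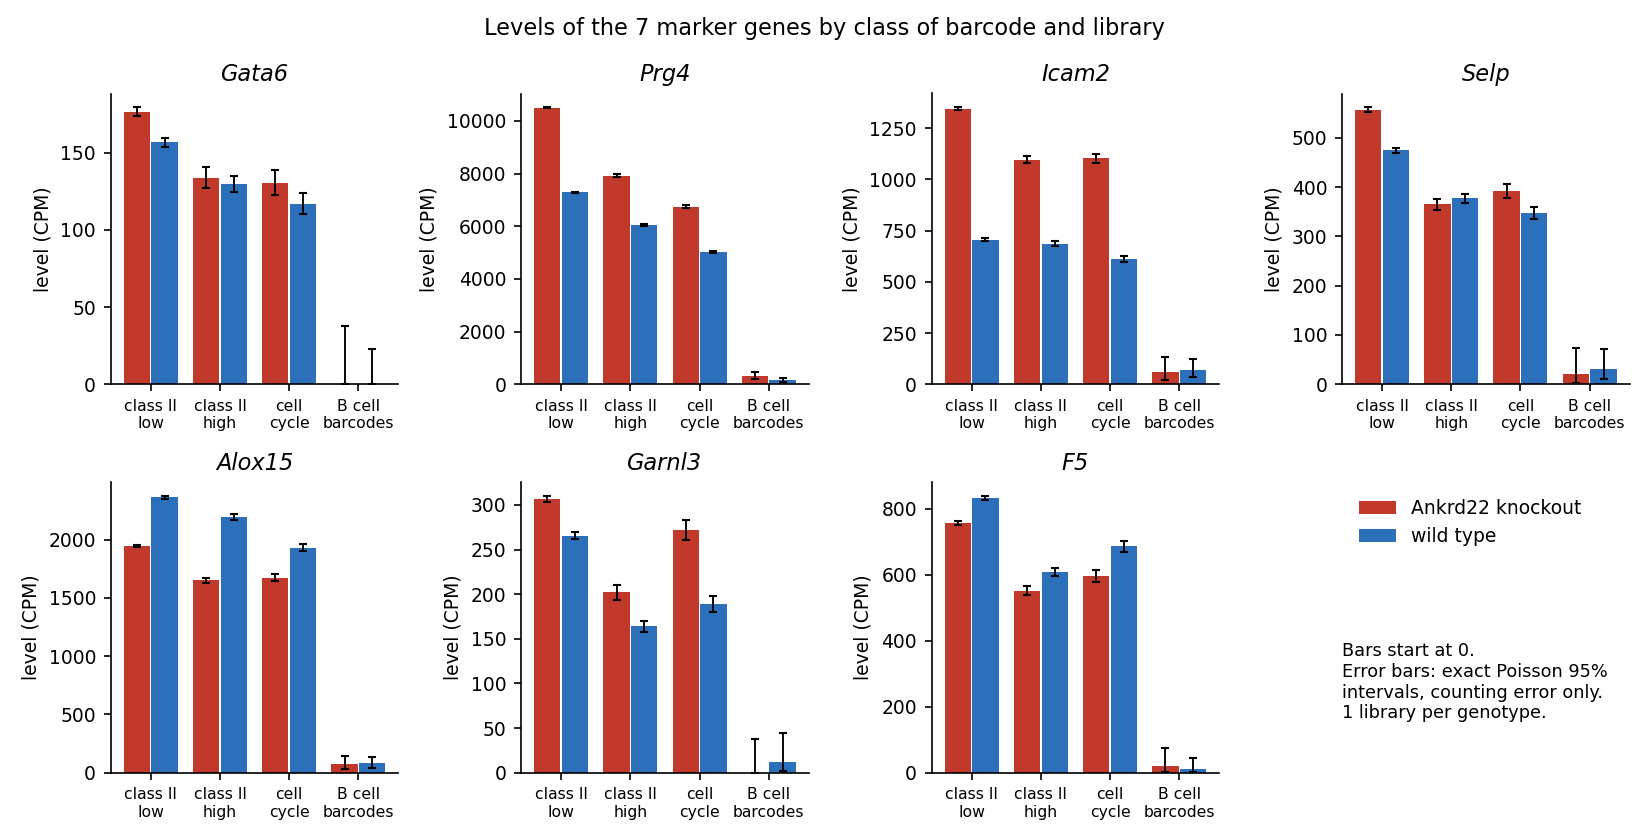
Level of each of the 7 markers in CPM (vertical axis of each panel) in class II low members, class II high macrophages, cell cycle gene positive macrophages and B cell barcodes without Adgre1, knockout in red on the left and wild type in blue on the right of each pair, with 95% exact Poisson bars. The 3 macrophage classes carry all 7 markers, and the B cell barcodes sit near 0, with Gata6 at 0 UMIs in both libraries.

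The markers did not set members apart in kind from the other macrophages, which carried the same 7 genes at somewhat lower levels. In class II high macrophages Gata6 had 134 CPM within the knockout and 130 CPM within the wild type library, and Garnl3 202 and 164 CPM. In cell cycle gene positive macrophages Gata6 had 130 and 117 CPM and Garnl3 272 and 189 CPM. Set against all remaining filtered cells of the same library, the log2 ratio of members was 0.43 in knockout cells and 0.34 in wild type cells for Gata6, and 0.45 and 0.63 for Garnl3. For Selp the ratio was 0.58 in knockout cells and 0.39 in wild type cells, and for F5 it was 0.44 and 0.42. Icam2 gave 0.32 and 0.11, Alox15 gave 0.27 and 0.19, and Prg4, which the rule used, gave 0.50 and 0.38. The sign of these ratios stayed positive for each of the 7 markers in both libraries under every alternative computed. Members thus carried the 7 markers of the label, of which the rule used Prg4, and low class II was the rule itself. The class II high macrophages next to the threshold share the markers, so these ratios are a description and no check of the label.

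Among cells thinned to 2000 UMIs, which leaves out 8 knockout and 20 wild type members, the share of members with a Gata6 UMI was 29.2% in knockout cells and 26.2% in wild type cells. In class II high macrophages it was 20.7% and 22.2%, and in B cell barcodes it was 0 of 18 knockout and 0 of 28 wild type cells, which allows shares of up to 16.7% and 10.7% (3 counts). Icam2 had a UMI in 90.2% of knockout and 71.4% of wild type members, against 16.7% and 14.3% of B cell barcodes. The part of free RNA in these shares was not tested. Garnl3 had a UMI in 41.3% of knockout and 35.6% of wild type members and in 27.9% and 22.1% of class II high macrophages, with 0% and 3.57% of B cell barcodes. Without thinning, at the full depth, Gata6 had a UMI in 87.2% of knockout and 78.1% of wild type members, and Garnl3 in 90.8% and 81.7%.

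Across the range of class II, the markers were nearly level below the threshold and lower in the cells richest in class II. All Adgre1-positive, Prg4-positive macrophages that passed the other criteria were divided into 8 bins by their class II UMIs per 10000. In the 4 bins below 5, Gata6 read 176, 182, 176 and 166 CPM within the knockout and 159, 158, 156 and 152 CPM within the wild type library. In the 4 bins at and above 5, it read 154, 151, 118 and 53.4 CPM in knockout cells and 147, 130, 118 and 79.8 CPM in wild type cells. Garnl3 had the steepest course of the 7 markers in both libraries, with 301 CPM in knockout members without class II UMIs and 21.8 CPM in the knockout bin at 50 or more per 10000, and 277 and 42.6 CPM in the same wild type bins. Selp had 577 and 128 CPM in those knockout bins and 484 and 246 CPM in the wild type bins. Alox15 stayed close to level in the wild type library up to the last bin, with 2310 CPM at 0 class II UMIs and 1734 CPM at 50 or more. In the knockout library it had 1911 and 551 CPM. The last bin held 82 knockout and 128 wild type cells.

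Timd4 encodes TIM-4, a phosphatidylserine receptor used to take up apoptotic cells, and its level differed along the range within the members themselves. It had 154, 133, 125 and 93.7 CPM in the 4 knockout bins below 5 and 13.9 CPM in the last bin. In the wild type bins below 5 it had 194, 185, 164 and 138 CPM, and 50.04 CPM in the last bin. Retnla, a secreted protein of alternatively activated macrophages, ran the other way, with 50.8, 96.8, 157 and 196 CPM in the knockout bins below 5 and 11471 CPM in the last knockout bin. In wild type cells it had 477, 605, 660 and 1173 CPM in the 4 lower bins and 11736 CPM in the last bin. Ccr2, the chemokine receptor of monocytes and monocyte-derived macrophages, was near 0 in members. Its level was 0.639 CPM in knockout and 0.453 CPM in wild type members without class II UMIs, against 505 and 155 CPM in the last bins. Ciita had 0.293 CPM in knockout and 0.226 CPM in wild type members without class II UMIs, against 52.1 and 10.6 CPM in the last bins. Because the bins were formed from measured transcripts of the same cells, these courses are a description.

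**Figure D2:**
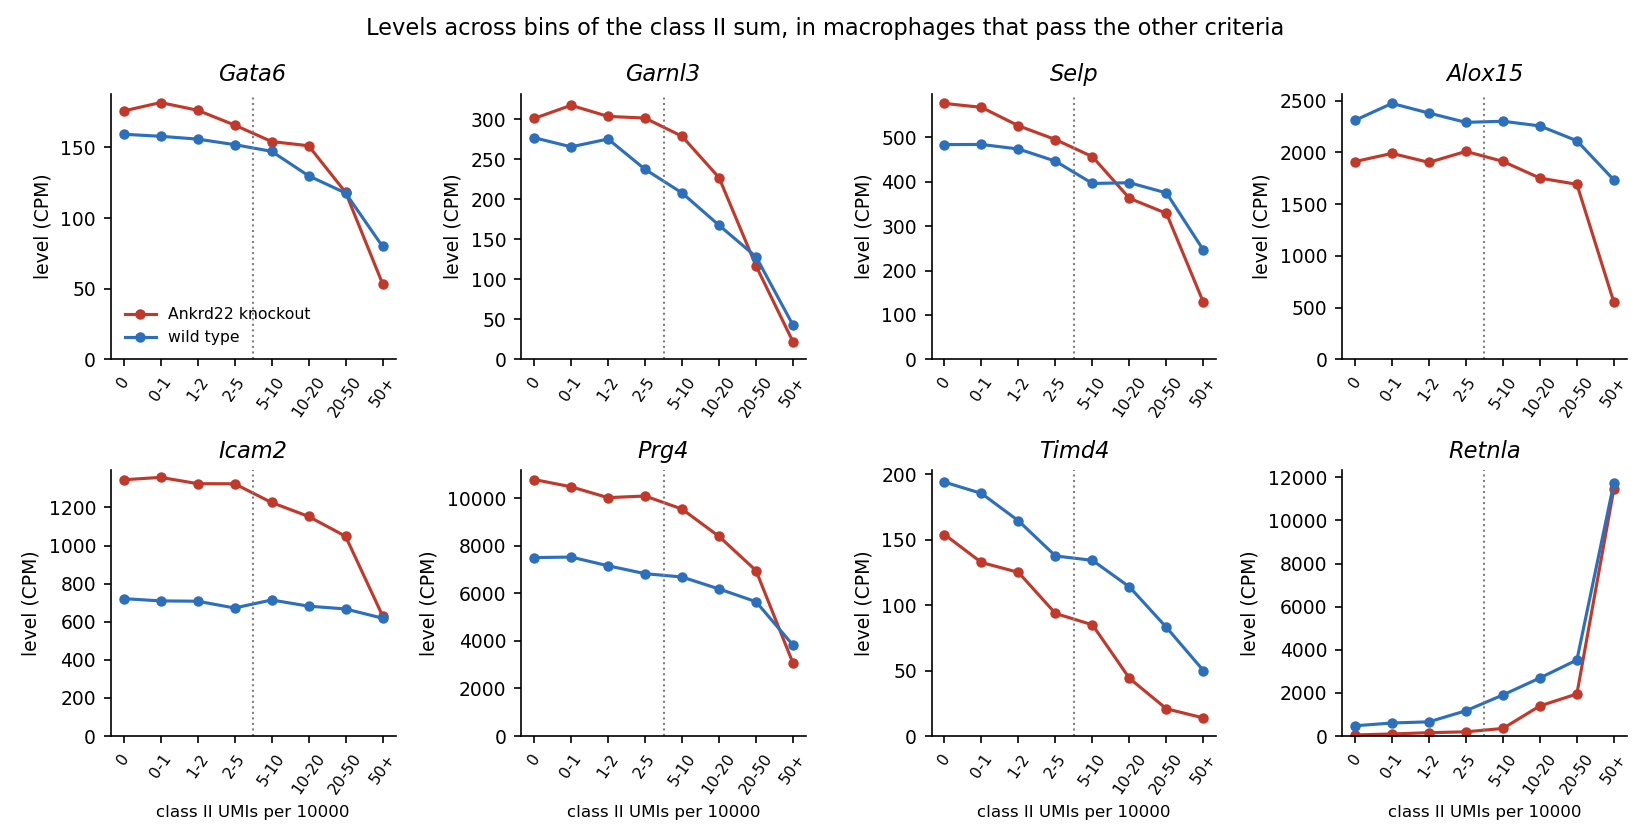
Level in CPM (vertical axis, 1 panel per gene) of Gata6, Garnl3, Selp, Alox15, Icam2, Prg4, Timd4 and Retnla over 8 bins of summed class II UMIs per 10000 (horizontal axis), knockout in red and wild type in blue, with the dotted line at the threshold of 5. Gata6 runs from 176 to 53.4 CPM in knockout cells and from 159 to 79.8 CPM in wild type cells, whereas Retnla is at its highest in the last bin of both.

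Few genes were much higher in members than in the remaining cells of the same library, and the 2 that were at least 2-fold higher in both libraries were Cdkn2a and Hbb-bs. These were 2 of 4626 genes with at least 20 CPM on one side in both libraries (0.0432%), and 85 were at least 2-fold lower in both (1.84%). The median log2 ratio over the 4626 genes was -0.06 in both libraries. Scaling turned this sign, since the medians over the genes tested in each library were 0.06 in knockout and 0.07 in wild type cells with TMM. Cdkn2a encodes the cell cycle inhibitors p16INK4a and p19ARF and led the ranking of higher genes, which left haemoglobin genes out. It had 87.0 CPM in knockout members against 25.5 CPM in the remaining knockout cells, and 112 CPM in wild type members against 47.1 CPM. Its log2 ratios were 1.73 and 1.23. The ratio was larger in both libraries for Hbb-bs, a haemoglobin gene named after its values were seen. Hbb-bs had 62.5 CPM in knockout members against 10.3 CPM in remaining cells, and 25.4 against 2.01 CPM in wild type cells. The rule kept cells with cell cycle transcripts out of the members, so the level of a cell cycle inhibitor such as Cdkn2a is not independent of the rule.

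The 15 highest genes included secreted growth factors and proteins that bind them. Tgfb2, a transforming growth factor, had 515 CPM in knockout members against 266 CPM in remaining cells, and 419 against 251 CPM in wild type cells. Wnt2, a Wnt ligand, had 62.0 CPM in knockout members against 30.6 CPM in remaining cells, and 73.7 against 44.0 CPM in wild type cells. Ltbp1, which holds latent TGF-beta in the matrix, had log2 ratios of 0.63 in knockout cells and 0.55 in wild type cells. Lrg1, a secreted leucine-rich glycoprotein, had 746 CPM in knockout members against 447 CPM in remaining cells, and 278 against 198 CPM in wild type cells. These genes were chosen for being higher in both libraries, so their shared direction is no result. Cxcl13, the chemokine that draws B cells, had 628 CPM in knockout members against 346 CPM in remaining cells, and 4230 against 2666 CPM in wild type cells.

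The others among the 15 encode receptors, enzymes and intracellular proteins. Timd4 had 136 CPM in knockout members against 61.4 CPM in remaining cells, and 174 against 113 CPM in wild type cells, with log2 ratios of 1.13 and 0.61. Vsig4, a receptor for complement fragments of C3, had 292 CPM in knockout members against 159 CPM in remaining cells, and 451 against 274 CPM in wild type cells. Nt5e, the ectonucleotidase CD73 that makes adenosine, had 74.5 CPM in knockout members against 42.9 CPM in remaining cells, and 62.8 against 37.6 CPM in wild type cells. Ptgis, prostacyclin synthase, had 547 CPM in knockout members against 326 CPM in remaining cells, and 499 against 342 CPM in wild type cells. Cd63, a tetraspanin of late endosomes, gave log2 ratios of 0.82 and 0.91, and Vmn2r26, annotated as a vomeronasal receptor, gave 1.14 and 0.76. The last genes of the 15 were Pi16 (0.67 in knockout cells and 0.69 in wild type cells), Cald1 (0.60 and 0.54) and Nedd4 (0.53 and 0.51). In cells thinned to 2000 UMIs, Timd4 had a UMI in 18.8% of knockout and 24.1% of wild type members and in 8.14% and 16.1% of class II high macrophages, against 0% and 3.57% of B cell barcodes. For Cdkn2a the shares were 10.6% and 14.2% of members and 3.02% and 7.66% of class II high macrophages, with 0% of B cell barcodes in both libraries.

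The promoters of the 7 markers and the 15 highest genes were searched for the core of the GATA motif, since GATA6 is the factor the class depends on. The window was the 250 bases upstream of each gene's start in RefSeq (GRCm38.p6), and the letters searched were GATAA and, for the other strand, TTATC. Of the 22 genes, 17 had an entry, some with more than 1 start, which gave 22 windows. A match was found in 2 of these 22 windows, those of Wnt2 and Vmn2r26, with 2 matches each. Among all 32851 windows of the same length, 22.6% held at least 1 match and 4.28% at least 2. Wnt2 is shown because its window holds 2 matches, in capitals, 1 of them within 10 bases of the gene's start. Selp and F5, which stand near each other on chromosome 1, are shown as markers whose windows hold no match. The Wnt2 window lies at chr6:18030446-18030695 on the minus strand, that of Selp at chr1:164115014-164115263 and that of F5 at chr1:164151585-164151834, both on the plus strand. A match is a description of letters and not a binding site, and its absence refers to these letters in these windows.
Wnt2: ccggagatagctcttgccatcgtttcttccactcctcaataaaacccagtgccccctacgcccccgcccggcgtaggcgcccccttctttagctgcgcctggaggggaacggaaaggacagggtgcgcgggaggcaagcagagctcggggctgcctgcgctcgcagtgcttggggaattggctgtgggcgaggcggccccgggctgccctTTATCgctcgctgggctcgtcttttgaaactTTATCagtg
Selp: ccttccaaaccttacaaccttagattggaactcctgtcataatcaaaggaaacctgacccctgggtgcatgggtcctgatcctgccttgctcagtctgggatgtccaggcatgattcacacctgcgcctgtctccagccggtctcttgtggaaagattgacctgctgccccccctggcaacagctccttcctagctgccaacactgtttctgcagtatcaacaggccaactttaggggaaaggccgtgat
F5: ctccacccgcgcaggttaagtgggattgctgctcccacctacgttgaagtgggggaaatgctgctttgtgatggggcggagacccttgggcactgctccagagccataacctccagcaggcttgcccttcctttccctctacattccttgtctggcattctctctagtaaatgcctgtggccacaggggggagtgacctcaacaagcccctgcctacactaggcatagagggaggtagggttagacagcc

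The genes lowest in members were mostly cell cycle genes, which the rule removed, together with Retnla. Pclaf, a PCNA-binding protein of DNA replication, had 1.08 CPM in knockout members against 114 CPM in remaining cells, and 1.78 against 105 CPM in wild type cells. Stmn1, a microtubule regulator of dividing cells, had 7.30 CPM in knockout members against 219 CPM, and 8.08 CPM in wild type members against 267 CPM. Hist1h1b, Hist1h2ap, Hist1h2ae, Smc2, Smc4, Hmgb2 and Cks1b made up the other cell cycle genes of the 10 lowest, with log2 ratios between -4.20 and -1.43 in knockout cells and between -4.22 and -1.29 in wild type cells. Against class II high macrophages alone, Pclaf, Cks1b and Smc4 were no longer lower in wild type members. Retnla had 98.3 CPM in knockout members against 1729 CPM in remaining knockout cells, and 694 CPM in wild type members against 2933 CPM. Its log2 ratios were -4.12 in knockout cells and -2.08 in wild type cells.

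Gene lists describe the same contrast by function. They were chosen with earlier results of these data known and are no separate support. At a mean of at least 5 CPM, 78 of 8857 genes (0.881%) were 1.5-fold or more higher and 479 (5.41%) 1.5-fold or more lower in knockout members than in remaining knockout cells. In the wild type library these were 38 of 8390 genes (0.453%) and 328 genes (3.91%), and the median log2 ratio over all genes was -0.08 in knockout cells and -0.07 in wild type cells. Of 35 genes of the large macrophage programme, 9 were at least 1.5-fold higher and 1 lower in knockout members, with a median log2 ratio of 0.38. In the wild type library 7 of 35 were higher and 0 lower, with a median of 0.34. The programme list holds the 7 markers themselves, of which the rule used Prg4, and other genes known from large peritoneal macrophages. Among the latter are Timd4, Wnt2, Tgfb2, Vsig4, Cxcl13 and Lrg1, already named above for being higher in members. The 23 measured adhesion genes had medians of 0.20 in knockout cells and 0.14 in wild type cells.

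Genes of small, monocyte-derived peritoneal macrophages stood at the other end. In the knockout library 9 of 14 measured genes were at least 1.5-fold lower in members and 0 higher, with a median log2 ratio of -1.82, and in the wild type library 8 of 12 were lower and 0 higher, with a median of -1.15. Of the 20 listed genes, 8 had 5 CPM or more in knockout and 10 in wild type members. The others that were measured passed the filter through the remaining cells, where they are high, so their being lower was built in and the counts are no support. Ccr2 had 1.18 CPM in knockout members against 83.7 CPM in remaining cells, and 0.883 CPM in wild type members against 29.5 CPM. Folr2, a folate receptor, had 2.62 CPM in knockout members against 20.2 CPM, and 13.5 CPM in wild type members against 54.0 CPM. Lyve1, a hyaluronan receptor, had 3.25 CPM in knockout members against 15.9 CPM, and 17.6 CPM in wild type members against 37.0 CPM. The list of the class II pathway outside the rule, which also holds Ctss, Lgmn, Ifi30 and Rfxap, had medians nearer 0. Its H2-DM genes were lower in members. H2-DMb1, a chain of the molecule that loads peptides onto class II, had 33.9 CPM in knockout members against 70.8 CPM, and 31.5 CPM in wild type members against 53.0 CPM. H2-DMa had 78.4 CPM in knockout members against 131 CPM, and 106 CPM in wild type members against 155 CPM. Lgmn was higher in members, with log2 ratios of 0.33 in knockout and 0.29 in wild type cells. The 7 measured genes of this pathway list had a median of -0.08 in the knockout library, with 2 lower. The 8 measured in the wild type library had a median of -0.23, with 1 lower.

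In most other lists few genes passed 1.5-fold, with exceptions that included the alternative activation and G1/S genes. For the macrophage core list, 0 of 20 genes were higher and 1 was lower in knockout members, and 0 of 20 in either direction in wild type members, with medians of 0.02 in both. For complement, C4b had 913 CPM in knockout members against 643 CPM in remaining cells and 788 against 591 CPM in wild type cells, and 1 of 14 genes was higher and 0 lower in each library. In the efferocytosis and scavenger list 2 of 20 genes were higher in each library, with 3 lower within the knockout and 2 lower within the wild type library, and medians of 0.04 and 0.09. The 11 retinoid genes measured in the knockout library had a median of -0.02 with 0 past 1.5-fold, and the 10 in the wild type library 0.03 with 0. Rarb, a retinoic acid receptor, had 26.2 CPM in knockout members against 22.9 CPM, and 29.6 CPM in wild type members against 24.1 CPM. Coagulation genes had medians of 0.20 over 9 genes and 0.04 over 11, with 1 lower and 0 higher in each library. In the lipid handling list 0 of 24 genes were higher and 2 lower in knockout members, and 0 of 22 were higher and 0 lower in wild type members. Fabp4, a fatty acid binding protein, had 1845 CPM in knockout members against 1331 CPM, and 2035 CPM in wild type members against 1549 CPM. Alternative activation genes, a list that holds Retnla, were lower in 7 of 13 cases among knockout and in 4 of 15 among wild type members, with 0 higher. Heat shock genes had 3 of 20 higher and 0 lower in wild type members, with Hspb1 at 0.96, Hspa1a at 0.87 and Hspa1b at 0.66, and 0 of 20 past 1.5-fold in knockout members. The inflammatory list had 3 of 12 lower and 0 higher in knockout members and 0 of 16 past 1.5-fold in wild type members. The eicosanoid list had 1 of 14 higher and 0 lower in knockout members and 1 of 15 higher and 1 lower in wild type members. The NF-kB list had 0 of 19 past 1.5-fold in knockout members and 0 of 20 higher and 1 lower in wild type members. In the MHC class I, immediate early, mitochondrially encoded, fatty acid oxidation, interferon and ribosomal protein lists 0 genes passed 1.5-fold in either direction in either library. The G1/S list of DNA replication genes was lower by rule, with 24 of 24 genes within the knockout and 19 of 19 within the wild type library past 1.5-fold and medians of -1.80 and -1.81. Among list medians just below 0 on the CPM scale, several were above 0 with TMM. These included the class II pathway outside the rule in the knockout library (-0.08, and 0.04 with TMM). NF-kB, MHC class I, heat shock and lipid handling did so in both libraries. No direction is given for these lists.

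**Figure D3:**
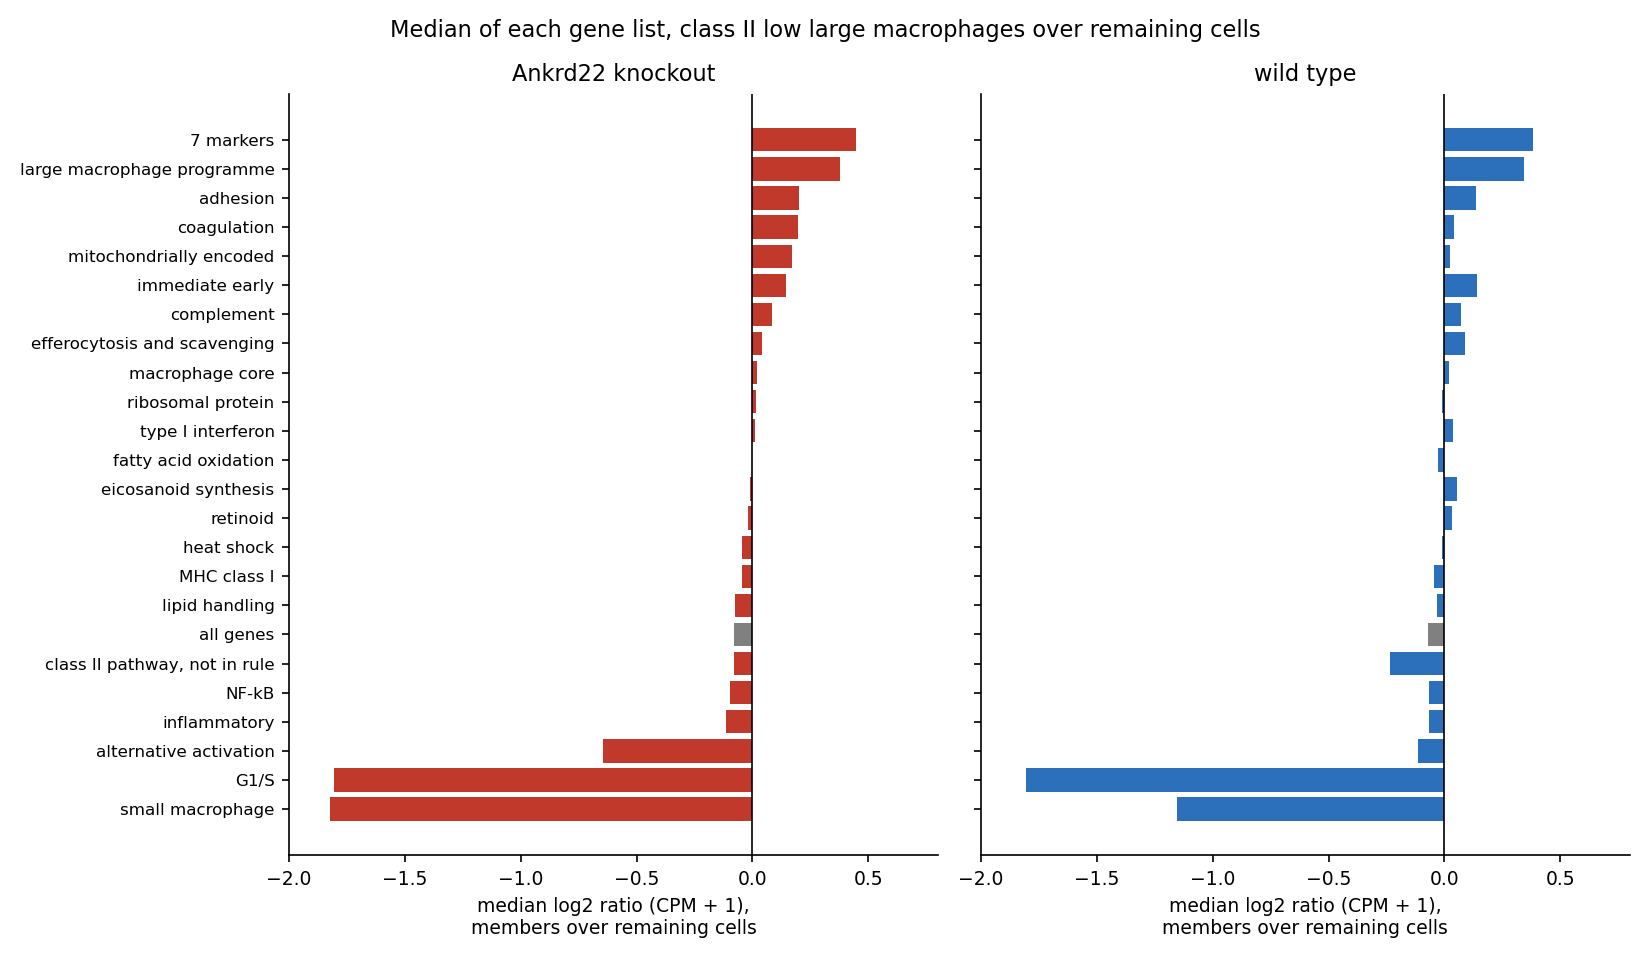
Median log2 ratio of members over remaining cells (horizontal axis) for each gene list (rows), knockout library in the left panel and wild type library in the right. The large macrophage programme lies at 0.38 and 0.34, the small macrophage genes at -1.82 and -1.15 and the G1/S genes, which the rule acted on, at -1.80 and -1.81.

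Ly6g, Ly6c2 and Flt3, which mark neutrophils, monocytes and dendritic cells, were at 0 UMIs in members, and haemoglobin transcripts were not. B cell markers summed to 4.54 CPM in knockout and 3.86 CPM in wild type members, which the rule set in part through Cd79a, Cd79b and Ms4a1. T cell markers summed to 0.292 and 0.191 CPM and mesothelial markers to 0.0337 and 0 CPM. Dendritic cell markers summed to 8.65 and 8.80 CPM with Flt3 at 0. Neutrophil markers summed to 85.3 and 96.0 CPM, most of it Csf3r (55.9 and 72.3 CPM) with Ly6g at 0, and monocyte markers to 186 and 144 CPM, most of it Hp (143 and 112 CPM) with Ly6c2 at 0. Haemoglobin and other red cell transcripts summed to 100.2 CPM in knockout members and 42.0 CPM in wild type members, against 16.3 and 3.55 CPM in class II high macrophages, and their part in the differences between the libraries was not tested.

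Among themselves, members differed more in most of the 7 markers than in the median gene. Retnla and the other most uneven genes were picked for their spread, so their standing above the markers is no result. Spread was measured as the dispersion, the variance beyond counting noise divided by the squared mean, in cells thinned to 5000 UMIs (5148 knockout and 4314 wild type members). The median dispersion was 0.124 over 2966 genes in knockout cells and 0.123 over 2615 genes in wild type cells. Prg4 had 0.106 in knockout cells and 0.122 in wild type cells, Icam2 had 0.130 and 0.171, and Selp had 0.139 and 0.123. Gata6 had 0.208 and 0.314, F5 had 0.258 and 0.263, Alox15 had 0.263 and 0.193, and Garnl3 had 0.436 and 0.707, the highest of the 7 in both libraries. A dispersion of 1 was reached by 81 of the 2966 knockout genes and by 81 of the 2615 wild type genes, and 40 were the same. Genes entered with a mean of at least 0.2 UMIs in the library. Only the 2508 genes that met this in both libraries could be shared, so the 40 do not measure how far the libraries differ.

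Retnla was among the most uneven genes in both libraries. Its dispersion was 56.8 in knockout members, where 13.8% of cells had a UMI and the top 10% of cells held 91.2% of its UMIs. In wild type members the dispersion was 24.3, with 38.6% of cells having a UMI and the top 10% of cells holding 88.2%. Cxcl13 had a dispersion of 10.0 in knockout and 2.04 in wild type members, and Cxcl2, a neutrophil chemokine, had 7.17 and 0.484. Both chemokines were lower and more uneven in the knockout library. Spp1, the secreted phosphoprotein osteopontin, had a dispersion of 5.14 in knockout members, where 38.9% of cells had a UMI, the median cell had 0, the 90th percentile was 10 and the highest cell had 71. Cdkn2a had 5.75 and Wnt2 had 5.98 in knockout members. In wild type members the ranking also held the heat shock genes Hspb1 (71.8), Hspa1a (23.6) and Hspa1b (16.9) and the scavenger receptor Marco (18.5). Mir6236, Id3, Ptgs2, Ccl2 and Ccl3 followed with 13.6, 10.8, 9.10, 9.06 and 7.83. In knockout members Marco, Id3, Ptgs2, Ccl2 and Ccl3 had higher dispersions of 25.5, 37.2, 68.7, 15.4 and 41.8. Their knockout means were under the 0.2 UMIs needed for the ranking. Hspb1 (9.42), Hspa1a (4.61), Hspa1b (4.69) and Mir6236 (3.56) were lower in knockout members. The unevenness of this set was thus not particular to the wild type library.

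**Figure D4:**
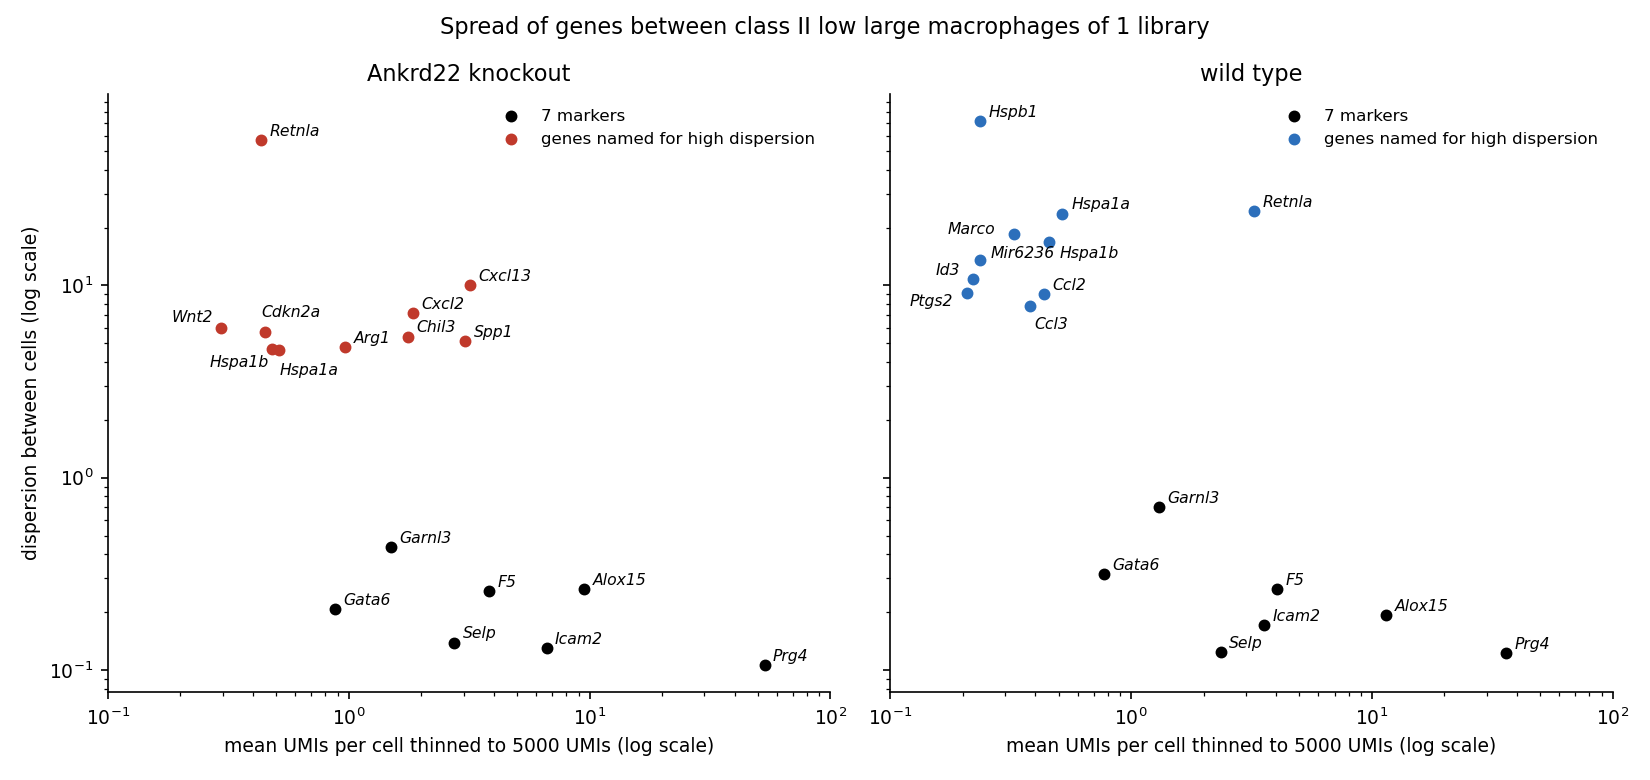
Dispersion (vertical axis, log scale) against mean UMIs per cell (horizontal axis, log scale) in members thinned to 5000 UMIs, knockout on the left and wild type on the right, for the 7 markers in black and the 10 most uneven genes of each library in colour. Markers lie between 0.106 and 0.707. Retnla, among the genes picked for high dispersion, lies at 56.8 in knockout cells and 24.3 in wild type cells.

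Pairs of genes varied together across members to a limited extent, given here as Pearson correlations over the thinned cells of 1 library, which share that library and a fixed depth. Hspa1a and Hspa1b, neighbouring heat shock genes of near-identical sequence whose reads may be split between them, gave 0.54 in knockout and 0.62 in wild type members. F5 with Prg4 gave 0.34 in knockout and 0.37 in wild type members, and Prg4 with Selp gave 0.19 and 0.24. Cdkn2a correlated with Cxcl13 at 0.22 and with Timd4 at 0.17 in knockout members. Prg4 with Retnla gave -0.21 in wild type members, and Chil3 with Timd4 gave -0.18 in knockout members.

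Between the genotypes, knockout members carried more osteopontin, Chil3 and arginase transcripts and fewer transcripts of the neutrophil chemokines Cxcl1 and Cxcl2 and of Tnfaip3 than wild type members. At 20 CPM in the higher library, 89 of 5043 genes (1.76%) were 2-fold or more higher and 107 (2.12%) 2-fold or more lower in knockout members. The median log2 ratio over these genes was 0.22, with 76.1% of genes above 0. Scaling by TMM moved that median to -0.07 and scaling by the median of ratios to -0.08. The split of 2-fold genes followed, with 45.4% higher under CPM, 19.2% under TMM and 19.1% under the median of ratios. Ratios between the genotypes below are on the CPM scale and should be read against the median of 0.22.

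Among the markers, Icam2 and Prg4 had the highest ratios between the genotypes. The log2 ratio of knockout over wild type members was 0.93 for Icam2 and 0.52 for Prg4, and both stayed positive under TMM (0.65 and 0.24) and under the median of ratios (0.64 and 0.24). In the remaining cells the ratio was 0.72 for Icam2 and 0.41 for Prg4, so the difference was not confined to members. Alox15 had -0.28 and F5 had -0.14 under CPM, and both were lower under the other scalings (-0.56 and -0.41 with TMM). Gata6 (0.17, counting interval 0.14 to 0.21), Selp (0.23) and Garnl3 (0.21) lay at the all-gene median. These 3 turned to -0.11, -0.05 and -0.07 under TMM, so no direction is given for them.

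Spp1 had 641 CPM in knockout members and 5.49 CPM in wild type members, a log2 ratio of 6.63. A single wild type member held 175 of the 373 wild type Spp1 UMIs. Without the cell richest in Spp1 in each library, the levels were 639 CPM in knockout and 2.91 CPM in wild type members and the ratio was 7.35. Thinned to 2000 UMIs, 28.6% of knockout and 0.513% of wild type members had an Spp1 UMI. Chil3, the chitinase-like secreted protein Ym1, had 362 CPM in knockout members and 12.7 CPM in wild type members, with shares of 26.3% and 1.94%. Arg1, the arginase of alternatively activated macrophages, had 216 CPM and 65.0 CPM, with shares of 20.1% and 8.67%. Of the 18 knockout B cell barcodes 1 had an Spp1 UMI, 1 a Chil3 UMI and 0 an Arg1 UMI, and of the 28 wild type B cell barcodes 0 had any of them. All 3 were also higher in the remaining cells of the knockout library, with log2 ratios of 5.78 for Spp1, 4.53 for Chil3 and 2.11 for Arg1. Other genes among the 15 highest included Car6, a secreted carbonic anhydrase (95.02 and 24.3 CPM), Rhoc, a small GTPase of cell movement (341 and 90.1 CPM), and S100a6, a calcium-binding protein (2411 and 769 CPM). Lrg1 and Vmn2r26, which were also higher in members than in remaining cells, gave 1.42 and 1.57. Nuclear non-coding RNAs were on the same side, with Malat1 at 12318 CPM in knockout and 4808 CPM in wild type members, Neat1 at 287 and 91.5 CPM and Kcnq1ot1 at 117 and 29.4 CPM. All 13 measured genes encoded by mitochondrial DNA passed 1.5-fold on the higher side (median log2 ratio 1.06 in members and 0.91 in remaining cells). The part of RNA quality or nuclear RNA in these differences was not tested.

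The 15 lowest genes in knockout members included chemokines and regulators of the response of macrophages to stimulation. Tnfaip3, the A20 inhibitor of NF-kB, had 4.32 CPM in knockout members and 137 CPM in wild type members. Cxcl2 had 402 CPM and 8458 CPM. In cells thinned to 2000 UMIs, 26.5% of knockout and 95.9% of wild type members had a Cxcl2 UMI, and so did 11.1% and 53.6% of B cell barcodes, and the part of free RNA in the wild type share was not tested. Cxcl1, another neutrophil chemokine, had 40.3 CPM in knockout members and 621 CPM in wild type members. Ccrl2, a receptor-like protein that binds chemerin, had 22.7 and 428 CPM, and Rgs1, a regulator of chemokine receptor signalling, had 206 and 1569 CPM. Nfkbiz, Atf3 and Nlrp3, which act in NF-kB, stress and inflammasome responses, had 45.6, 89.9 and 13.4 CPM in knockout members and 246, 436 and 66.9 CPM in wild type members. Cxcl13 stood at a log2 ratio of -2.75 and Igf1, a growth factor, at -2.51. Pde4b (-2.55), Sgk1 (-2.45) and Nfil3 (-2.39) completed the lower genes together with Ccl3 (-2.68) and Retnla (-2.81).

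By list, 1025 of 8462 genes (12.1%) were 1.5-fold or more higher and 301 (3.56%) 1.5-fold or more lower in knockout members, with a median log2 ratio of 0.21. In the inflammatory list 12 of 14 measured genes were lower and 0 higher, with a median of -2.16. In the remaining cells 14 of 17 were lower with a median of -2.15, where 288 of all 8808 genes were lower (3.27%) and 1144 higher (13%), with a median of 0.21. Ptgs2 of this list, at 4.08 CPM in knockout and 43.1 CPM in wild type members, passed the filter through the wild type library. For such genes being lower was built in, so the counts are no support. Among immediate early genes 13 of 25 were lower and 0 higher (median -0.59). Among complement genes 6 of 14 were lower and 0 higher (median -0.43). C1qa had 1703 CPM in knockout members and 4721 CPM in wild type members, C1qc had a log2 ratio of -1.07 and C1qb one of -0.81.

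Alternative activation genes went both ways between the genotypes. Of 14 measured, 2 were higher (Chil3 and Arg1) and 5 lower in knockout members, with a median of -0.43. Retnla, F13a1 (39.8 CPM in knockout and 165 CPM in wild type members) and Ccl24 (285 and 998 CPM) were among the lower. Adhesion genes were also divided, with 4 of 24 higher and 2 lower. Itgb1 had 1356 CPM in knockout members and 647 CPM in wild type members, and Itga4 had 233 and 121 CPM, and their proteins pair as the integrin VLA-4. Thbs1, the matrix protein thrombospondin 1, had 1029 CPM in knockout members and 2922 CPM in wild type members. In the efferocytosis and scavenger list 3 of 18 were higher and 4 lower, with Scarb2 at 186 and 103 CPM and Marco at 32.7 and 68.0 CPM. Lyz2, lysozyme of the macrophage core list, had 25714 CPM in knockout members and 61907 CPM in wild type members, and 4 of 20 core genes were lower and 0 higher. Of 10 measured small macrophage genes 2 were higher and 3 lower, and of 7 class II pathway genes outside the rule 0 passed 1.5-fold. The medians of the adhesion, efferocytosis, retinoid, eicosanoid, marker and programme lists, between 0.01 and 0.21 under CPM, were below 0 under TMM and under the median of ratios, so no direction is given for them. Coagulation genes had 0 of 10 higher and 3 lower, among the lower F13a1, while F7 and F10 had log2 ratios of 0.50 and 0.43. Fatty acid oxidation genes had 3 of 24 higher and 0 lower (median 0.30), and interferon genes 1 of 20 higher (median 0.27), both close to the all-gene median. In the NF-kB list 4 of 19 were lower and 1 higher, in the heat shock list 3 of 20 lower and 2 higher, and in the lipid handling list 4 of 23 lower and 1 higher. In the MHC class I list 1 of 16 was lower, and in the eicosanoid list 1 of 15 was higher and 1 lower, the lower gene being Ptgs2 with 4.08 CPM in knockout and 43.1 CPM in wild type members. Ribosomal protein genes had 0 of 77 past 1.5-fold and a median of -0.02.

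DNA replication genes remained present in members at low levels, and most of those measured were higher in the knockout library. Of 17 measured G1/S genes, 11 were at least 1.5-fold higher and 0 lower in knockout members, with a median log2 ratio of 1.02. Over all genes 12.1% were that much higher. In remaining cells 18 of 24 were higher, with a median of 0.77, against 13% over all genes. The filter of 5 CPM took the mean of both libraries, so genes could pass it through the knockout side, where they were high. For such genes being higher was built in, and these counts are no support. Pcna and Slbp, also of the list, had log2 ratios of 0.12 and 0.31 in members, and -0.16 and 0.04 with TMM. Thinned to 5000 UMIs, members averaged 1.45 G1/S UMIs per cell in knockout cells and 0.967 in wild type cells. At least 5 such UMIs were found in 268 of 5148 knockout members (5.21%, interval 4.61 to 5.85), against 61 of 4314 wild type members (1.41%, 1.08 to 1.81). Those cells held 29.1% of the list's UMIs in knockout and 11.1% in wild type members. The rule, which used 5 genes of later phases, thus left cells with G1/S transcripts among the members.

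For most genes, the genotype ratio in members was close to that in the remaining cells. At 20 CPM, 0 genes had a ratio in members higher by 1 log2 unit or more than in the remaining cells, and 1 gene, Retnla, had a ratio lower by that much. The ratio of Retnla was -2.81 in members and -0.76 in remaining cells, a difference of -2.05 that ranged from -2.27 to -1.10 over the alternatives. Ccl2, a monocyte chemokine, had -1.91 in members and -2.77 in remaining cells. Timd4 had -0.35 in members and -0.87 in remaining cells, so it was less far below wild type among members. Cdkn2a had -0.36 and -0.86, but the sign of its difference depended on the setting, with a range from -0.06 to 0.73. Hmgn2, a nucleosome-binding protein, and the non-coding Mir99ahg were the other two on this side, with differences of 0.58 and 0.56. Lyz1, a lysozyme gene whose sequence is close enough to Lyz2 that reads may be split between them, had 468 CPM in knockout and 2139 CPM in wild type members and a difference of -0.76. The heat shock gene Hspa1a (-0.74), F13a1, the transglutaminase that cross-links fibrin (-0.68), and Cd52, a small surface glycoprotein (-0.61), had differences on the same side, as did Pla2g7, a lipase of platelet-activating factor (-0.74). Spp1 had a difference of 0.85 whose sign depended on the setting, with a range from -0.87 to 1.52. With 1 library per genotype, none of these differences was tested.

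**Figure D5:**
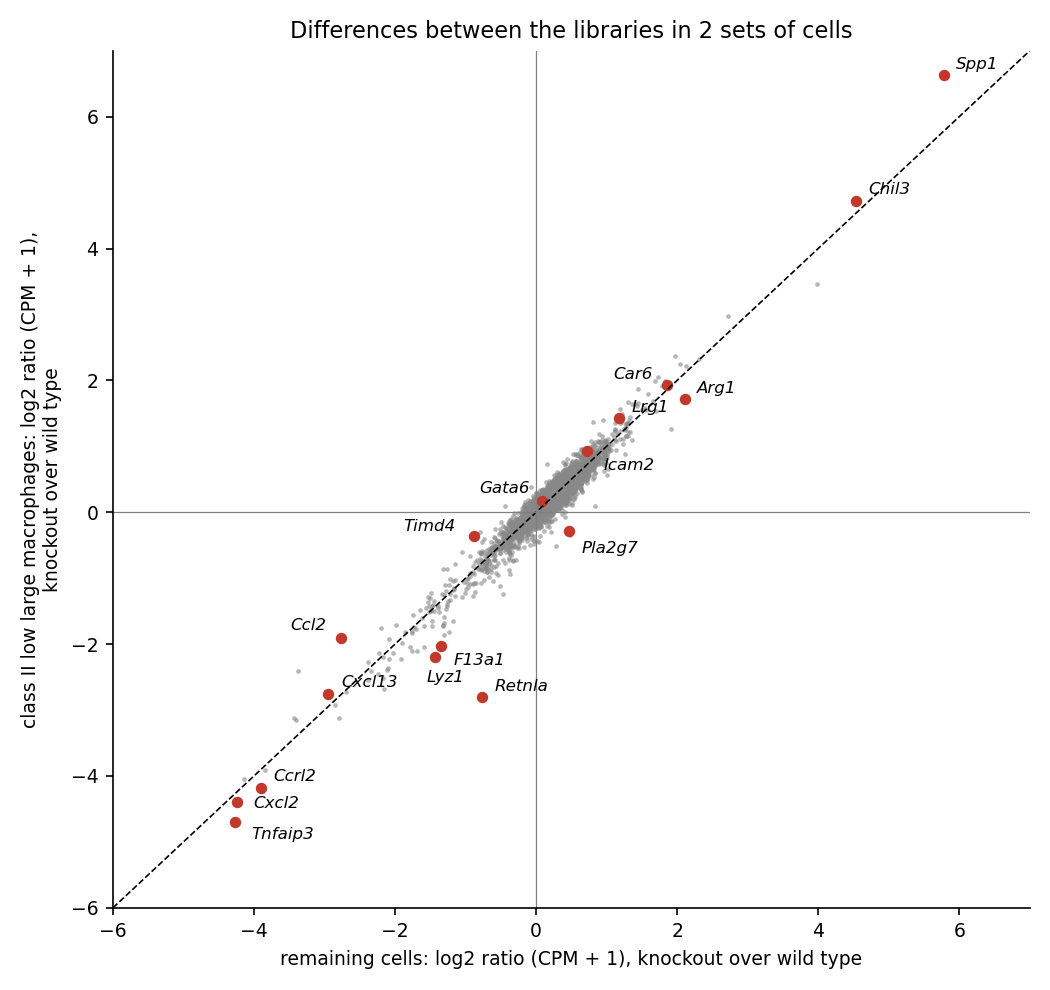
Log2 ratio of knockout over wild type in members (vertical axis) against the same ratio in the remaining filtered cells (horizontal axis), 1 point per gene with at least 20 CPM in members of the higher library, with the dashed line of equal ratios. Most genes lie along the line, Spp1 lies at 6.63 and 5.78, and Retnla lies below the line at -2.81 and -0.76.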

How the data were processed

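F4/80+ peritoneal cells of 1 Ankrd22 knockout and 1 wild type library were analysed from the UMI counts per gene and barcode that the authors deposited, and per the file headers the software was Cell Ranger 6.1.2. The submitters' processing notes also name bcl2fastq, Seurat 4.1.0 and the build mm9, whereas all 55450 features are found in GENCODE M21, which is annotated on GRCm38. No column of per-sample values was left unused (0). The labels do not call the libraries replicates.

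The members, gene lists and comparisons were chosen with earlier results of these data known. Members followed the thresholds given above. UMIs were summed over the cells of a class and library and scaled to 1000000 (CPM), and log2 ratios were taken with 1 CPM added, which understates the ratios of low genes. Levels have 95% exact Poisson intervals and shares 95% exact binomial (Clopper-Pearson) intervals. Shares were taken in cells thinned to 2000 UMIs and dispersions and correlations in cells thinned to 5000 UMIs (seed 0). Scrublet's automatic threshold called 1 barcode in each library (0.0157% of knockout and 0.0160% of wild type barcodes), under the 0.5% at which it can be taken to work, so no doublets were removed. An alternative removed 324 knockout (5.09%) and 313 wild type (5.00%) barcodes by score.

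Named genes were the 7 markers, the 15 highest and 10 lowest in members over remaining cells of both libraries, the 15 highest and 15 lowest in knockout over wild type members and the 6 in each direction that differed most between members and remaining cells, all at 50 CPM. To these came the 10 most uneven genes per library, among genes with a mean of at least 0.2 UMIs per thinned cell, and up to 4 of each list. Genes of the rule, mitochondrial, ribosomal, immunoglobulin, sex-linked marker and haemoglobin genes and unnamed models were left out. The genes followed along class II (Ccr2, Ciita), the other genes shown with a list and the 3 promoters printed were chosen after their values were seen.

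Alternatives were TMM factors (edgeR 4.0.16) and the median of ratios as scalings, genes at 5 and 50 CPM, the mean of per-cell CPM, other thresholds of the rule, thinning, a depth range and doublet removal. The ratios and counts were tested on simulated data with known fold changes. Scanpy 1.11.5 with anndata 0.12.19, scipy 1.17.1, numpy 2.4.6 and pandas 2.3.3 ran under Python 3.11.15, figures were drawn with matplotlib 3.10.9, and edgeR ran under R 4.3.3.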

Additional observations from a re-analysis of the deposited data

Results flagged for a closer look

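Pla2g7, which encodes the lipase that inactivates platelet-activating factor, lay on opposite sides in members and all remaining cells on the CPM scale. It had 97.4 CPM in knockout members and 118 CPM in wild type members, a log2 ratio of -0.28, and 102 CPM in the remaining knockout cells and 73.9 CPM in the remaining wild type cells, a ratio of 0.46. The difference between members and remaining cells was -0.74 and ranged from -1.06 to -0.16 over the alternatives. With 1 library of each genotype, this difference was not tested.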

How the results depend on the processing

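No paired analysis was possible because each genotype had 1 library, and leaving out a library was not possible for the same reason. The share of members was higher in the knockout library under each of the 10 settings computed, between 68.3% and 87.5% among knockout and between 56.8% and 79.8% among wild type barcodes. It was 72.6% of knockout and 56.8% of wild type barcodes with class II under 2 per 10000, and 86.4% and 79.8% with class II under 10. It was 68.3% and 59.6% with cell cycle genes of 0 UMIs, 77.8% and 70.4% with the rule applied to cells thinned to 5000 UMIs, and 87.5% and 76.0% among cells of 10000 to 20000 UMIs.

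Genes 2-fold higher and lower in knockout members numbered 41 and 173 with TMM, 41 and 174 with the median of ratios, and 49 and 70 at 50 CPM, with 251 higher at 5 CPM, against 89 and 107 as reported. Genes 2-fold lower in members than in remaining cells of both libraries, 85 as reported, numbered 232 at 5 CPM, 22 at 50 CPM, 47 with class II under 2, 50 with cell cycle genes of 0 UMIs, 56 after thinning to 5000 UMIs and 29 among cells of 10000 to 20000 UMIs. Those 2-fold higher, 2 as reported, numbered 4 at 5 CPM, 1 at 50 CPM, 1 with the mean of per-cell CPM, 0 with class II under 2, 4 with class II under 10, 0 with cell cycle genes of 0 UMIs, 1 after thinning and 1 among cells of 10000 to 20000 UMIs.

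Narrower sets of remaining cells were chosen after seeing the data. With class II high macrophages as the remaining cells, 14 genes were lower, and the wild type log2 ratios of Pclaf, Cks1b and Smc4 turned to 0.063, 0.094 and 0.0067, since the cell cycle positive cells were then left out. With cell cycle positive macrophages as the remaining cells, 254 genes were lower and 7 higher. Leaving out the cell of most UMIs of a gene in each library, also chosen after seeing the data, moved the genotype ratio of Spp1 to 7.35, of Retnla to -2.86, of Cxcl2 to -4.41 and of Cxcl13 to -2.77. Of the values for single named genes over these settings, 832 moved by more than their counting interval or by more than 0.1, 3 reversed and 2077 did not. For list medians 221 moved and 906 did not. A reversal was labelled only for ratios the genes were named for and for values of at least 1 log2 unit. Sign changes of smaller values, such as Gata6, Selp and Garnl3 under TMM, and of list medians were counted as moved or not moved. The 3 are therefore not all the changes of sign. For the other moved values the cause was not tested. Counting error was small at this depth for genes above 20 CPM, while variation between animals was not measured.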
